A study of Homo sapiens with 6 samples.

Results

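The perilipins and the lipases of the lipid droplet were followed here as 10 genes chosen by name out of 63140 genes listed: the coat proteins PLIN2, PLIN3, PLIN4 and PLIN5, the lipases PNPLA2, LIPE and MGLL, and the lipase regulators ABHD5, G0S2 and HILPDA. All 10 symbols were found in the files. RNA was sequenced from BT-549 cells, a human triple negative breast cancer cell line of wild-type genotype, after 24 h in adipocyte-conditioned medium (ACM, 3 libraries) or in unconditioned medium (UCM, 3 libraries). The labels give 50% ACM for the treated cultures, whereas the study's supplement describes undiluted ACM. The ACM had been collected from mouse OP9 cells differentiated into adipocytes in a medium with insulin, oleate and albumin, and the formula of UCM was not stated. Lipid, insulin, serum level, base medium and adipocyte secretions therefore cannot be told apart. The libraries are described as replicates of 1 experiment on 1 cell line, so p-values measure the spread between these cultures.

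A lipid droplet is a core of triacylglycerol and sterol ester under a phospholipid monolayer, and perilipins are the proteins that coat this surface and govern the access of lipases to it. PNPLA2 (adipose triglyceride lipase, ATGL) removes the first fatty acid from triacylglycerol, LIPE (hormone-sensitive lipase) acts on the diacylglycerol that remains, and MGLL (monoacylglycerol lipase) releases the last one. ABHD5 (CGI-58) activates PNPLA2, whereas G0S2 and HILPDA bind and inhibit it. PLIN2 and HILPDA are widely used as signs of lipid loading outside adipose tissue, since PLIN2 protein is degraded when it is not on a droplet and both genes are known targets of lipid-sensing PPAR receptors and of hypoxia-inducible factors.

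The perilipins share a coat function but differ in where they are made, so the 250 bases before the RefSeq start site of 4 of them are shown (GRCh38.p14, minus strand, 5′ to 3′), with capitals for ACGTG and GCGTG, the core letters of hypoxia response elements, on either strand. They lie at chr9:19127493-19127742 for PLIN2, chr19:4867668-4867917 for PLIN3, chr19:4518487-4518736 for PLIN4 and chr19:4535225-4535474 for PLIN5.
PLIN2: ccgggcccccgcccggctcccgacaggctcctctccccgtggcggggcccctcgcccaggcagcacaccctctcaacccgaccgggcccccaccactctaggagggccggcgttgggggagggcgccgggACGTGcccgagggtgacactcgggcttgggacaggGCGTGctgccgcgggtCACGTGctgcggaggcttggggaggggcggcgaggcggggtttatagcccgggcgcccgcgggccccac
PLIN3: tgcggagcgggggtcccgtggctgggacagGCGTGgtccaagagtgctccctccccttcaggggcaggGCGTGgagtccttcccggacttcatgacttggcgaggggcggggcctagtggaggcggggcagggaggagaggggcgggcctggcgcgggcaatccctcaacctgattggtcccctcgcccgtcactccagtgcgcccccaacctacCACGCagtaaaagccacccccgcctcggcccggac
PLIN4: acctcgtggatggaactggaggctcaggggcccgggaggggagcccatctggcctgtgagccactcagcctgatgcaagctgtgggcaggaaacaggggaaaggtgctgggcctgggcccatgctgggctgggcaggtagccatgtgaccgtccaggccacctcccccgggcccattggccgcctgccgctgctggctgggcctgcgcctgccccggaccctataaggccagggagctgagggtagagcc
PLIN5: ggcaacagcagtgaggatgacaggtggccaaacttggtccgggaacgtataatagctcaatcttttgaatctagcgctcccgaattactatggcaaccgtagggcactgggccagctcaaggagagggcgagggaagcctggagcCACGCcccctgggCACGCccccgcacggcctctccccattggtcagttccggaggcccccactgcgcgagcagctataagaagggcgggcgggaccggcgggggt
In the window from 250 bases before to 50 bases after the start, the PLIN2 promoter held ACGTG at positions -120, -69 and -68 from the start site. The matches at -69 and -68 are both strands of 1 CACGTG, the E-box read by basic helix-loop-helix factors, and 7.26% of the 35116 RefSeq promoters of this length hold that motif. ACGTG occurs in 21.4% of these promoters and GCGTG in 36.5%. The PLIN2 promoter also held GCGTG at -85 and -3, of which the second runs past the start and is not capitalised above. All motifs were counted on either strand. TATAAA at -29, a motif of 11.5% of promoters, lay on the opposite strand and reads TTTATA above. PLIN3 had 3 GCGTG and PLIN5 had 2, with no ACGTG in either, and PLIN4 had neither. The direct repeat bound by PPAR receptors, AGGTCA and a second AGGTCA with any base between them, was in 0.0228% of promoters and in none of the windows for 8 of the 10 genes that matched the promoter table, which were the 4 perilipins, G0S2, PNPLA2, ABHD5 and LIPE. PNPLA2 held a single AGGTCA, at -239, a motif of 13.8% of promoters, and HILPDA and MGLL had no entry.

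Expected counts summed to between 17135288 and 21053257 per library. Mesenchymal markers known for BT-549 were present, 10 of 10 tested, summing to 10200-10400 CPM (counts scaled to the same library total) in ACM and 9430-9930 CPM in UCM. Of 10 epithelial markers 2 had enough counts to be tested, and EPCAM averaged 0.0316 CPM in ACM and was at 0 in UCM. Of 12 adipocyte markers, 7, among them ADIPOQ and LEP, were at 0 in every library, and the list summed to 2.08-3.1 CPM in ACM and 1.4-1.98 CPM in UCM, mostly as CFD. The library of ACM replicate 2, which stands apart for PLIN2 below, did not do so across genes: 194 genes were above 2 times the mean of the other ACM libraries, against 357 for ACM replicate 1 and 79 for ACM replicate 3.

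Levels were compared between genes per length, as TPM, which divides by the length of the gene's transcripts. PLIN3 and PLIN2 were the 2 highest of the 10 genes in every library, and G0S2 and PLIN5 were at the limit of detection. In UCM the order was PLIN3, at 130.26 to 165.83 TPM, then PLIN2 at 67.42 to 79.62, PNPLA2 at 33.09 to 42.14, HILPDA at 24.03 to 25.51, ABHD5 at 14.13 to 17, MGLL at 7.6 to 8.85, LIPE at 4.46 to 6.29 and PLIN4 at 0.15 to 0.16 TPM. Each of these neighbours was separated from the next in all 3 UCM libraries. In ACM the order of the genes from PNPLA2 down to PLIN4 was unchanged and the neighbours were again separated, while PLIN2, at 147.19 to 549.98 TPM, overlapped PLIN3, at 155.82 to 162.08 TPM. Transcripts of PNPLA2, the lipase of the first step, were thus above those of its inhibitor HILPDA and its activator ABHD5 per length in each medium.

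**Figure D1:**
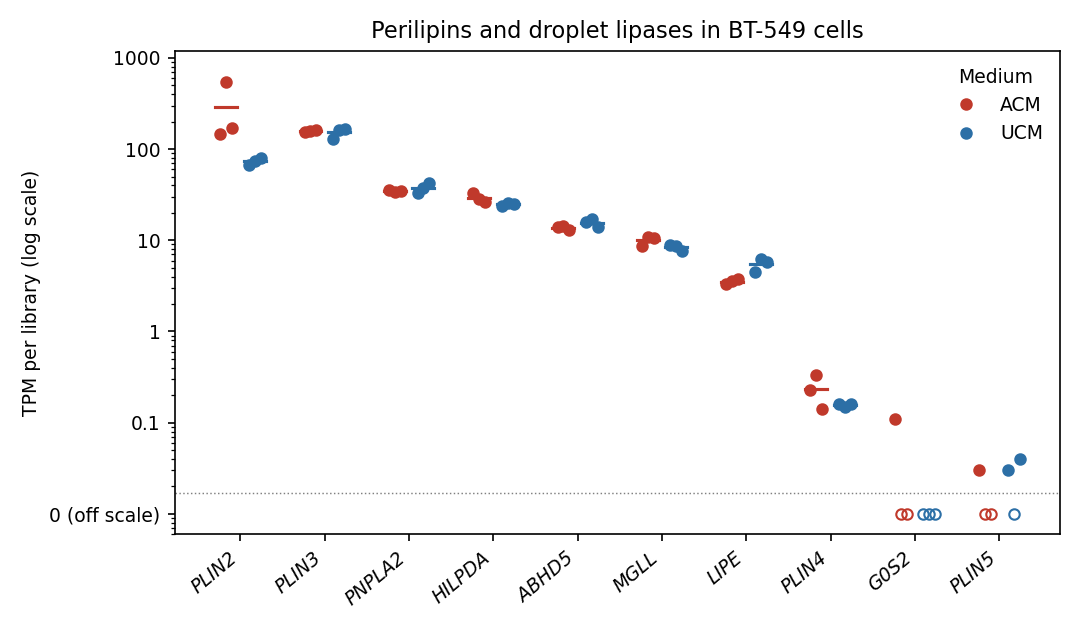
Level of each gene in each library, in TPM on a log scale, with ACM in red and UCM in blue and short lines at the mean of 3 libraries (points listed at 0 are open circles under the dotted line). PLIN2 is the gene whose ACM points, from 147.19 to 549.98 TPM, lie farthest above its UCM points, from 67.42 to 79.62 TPM, and G0S2 has 1 point above 0.

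The comparison of ACM with UCM asks whether medium conditioned by adipocytes changes these transcripts. In edgeR's quasi-likelihood test over 14451 genes, 484 genes (3.35%) were higher and 320 (2.21%) lower in ACM at an adjusted p at or below 0.05, and with the replicate number as a block 909 (6.29%) were higher and 703 (4.86%) lower. Of the 10 genes, 8 had enough counts to be tested and PLIN5 and G0S2 had not. None of the 8 passed the adjusted threshold in either direction in edgeR, whereas 3 (PLIN2, HILPDA and MGLL) were higher and 1 (LIPE) lower at an unadjusted p at or below 0.05, beside 11.9% of all genes tested that were higher and 11.5% that were lower by that rule. DESeq2 called 1, PLIN2, as higher and 0 as lower, beside 5.27% and 3.07% of all genes tested. The CPM values of the 2 groups did not overlap for the same 4 genes, 3 higher and 1 lower, beside 13.9% of all genes tested that were apart and higher and 15.0% that were apart and lower. The median log2 fold change of the 8 tested genes was 0.19, against -0.01 for all genes tested, with 5 above 0 and 3 below.

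**Figure D2:**
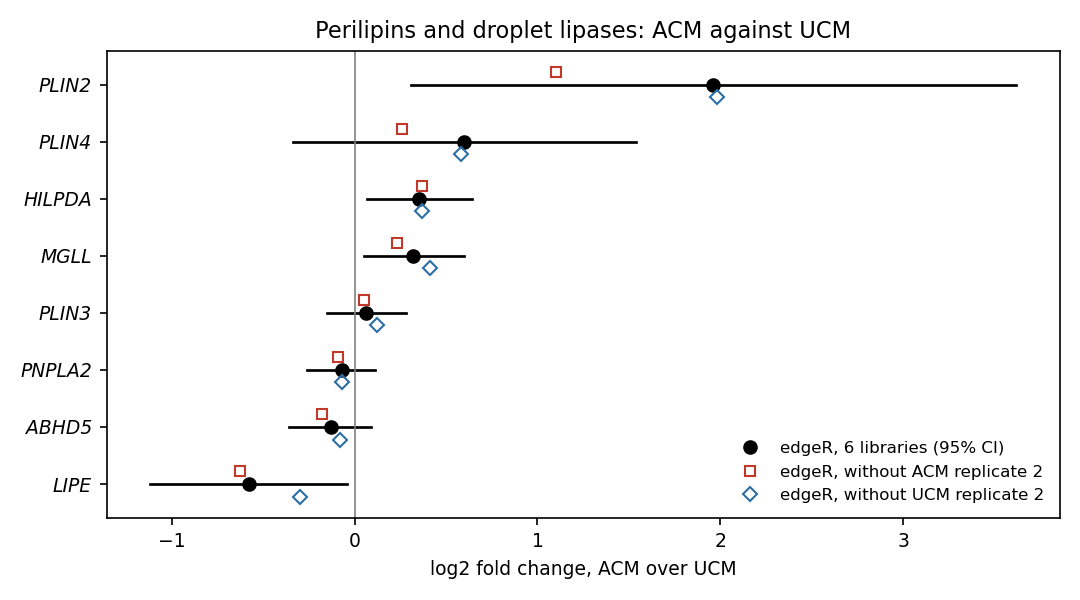
Log2 fold change of ACM over UCM for the 8 tested genes, as black points with 95% confidence intervals from all 6 libraries, and as open symbols without ACM replicate 2 (squares) and without UCM replicate 2 (diamonds). PLIN2 lies at 1.96 with an interval from 0.31 to 3.62 and moves to 1.10 without ACM replicate 2, and LIPE moves from -0.58 to -0.30 without UCM replicate 2.

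Among the coat proteins, PLIN2 (ENSG00000147872, chr9:19108375-19149290, minus strand), the perilipin of most cells that are not adipocytes, had the largest difference. It was at 161, 600 and 184 CPM in ACM replicates 1 to 3 and at 71.7, 82.8 and 87.6 CPM in UCM. The 3 ACM libraries, at 1.99, 7.44 and 2.28 times the UCM mean, were above all 3 UCM libraries, and ACM replicate 2 was far above the other ACM libraries. Means of 3 libraries were 315 ± 247 CPM (SD) under ACM and 80.7 ± 8.17 CPM (SD) under UCM. Its log2 fold change was 1.96 with a standard error of 0.62 and a 95% confidence interval from 0.31 to 3.62, with an adjusted p of 0.161 in edgeR. Without ACM replicate 2 the difference was smaller, at 1.10 with a standard error of 0.10, and passed the threshold with an adjusted p of 0.00202 in edgeR. Leaving out the most distant ACM library narrows the spread by construction, so this call is not stronger evidence. DESeq2 gave 1.97 with an adjusted p of 0.02, and over 14 alternatives the log2 fold change ran from 1.10 to 2.29 and the adjusted p from 0.00202 to 0.409, with PLIN2 called in 2 of them. More cells with high PLIN2 and more PLIN2 RNA per cell cannot be told apart in these bulk libraries.

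PLIN3 (ENSG00000105355, chr19:4838341-4867694, minus strand), a broadly expressed perilipin that moves between the cytosol and small droplets, did not separate the media. It was at 203, 213 and 209 CPM in ACM and at 167, 215 and 217 CPM in UCM, so that the ACM values lay within the range of UCM. Its log2 fold change was 0.06 with a standard error of 0.10, a 95% confidence interval from -0.15 to 0.28 and an adjusted p of 0.746 in edgeR, and turned to -0.04 without UCM replicate 1. The interval leaves room for a change of up to 1.21-fold.

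The share of each perilipin in the family's transcripts was also followed. PLIN2 was 48.5%, 77.8% and 51.4% of the summed TPM of PLIN1 to PLIN5 in ACM and 34.1%, 31.5% and 32.4% in UCM. The groups did not overlap, and the sum itself was 303, 707 and 334 TPM in ACM and 198, 236 and 246 TPM in UCM. The log2 ratio of PLIN2 to PLIN3 in CPM was -0.34, 1.5 and -0.18 in ACM and -1.22, -1.37 and -1.31 in UCM, a difference in means of 1.62 that was 1.04 without ACM replicate 2.

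**Figure D3:**
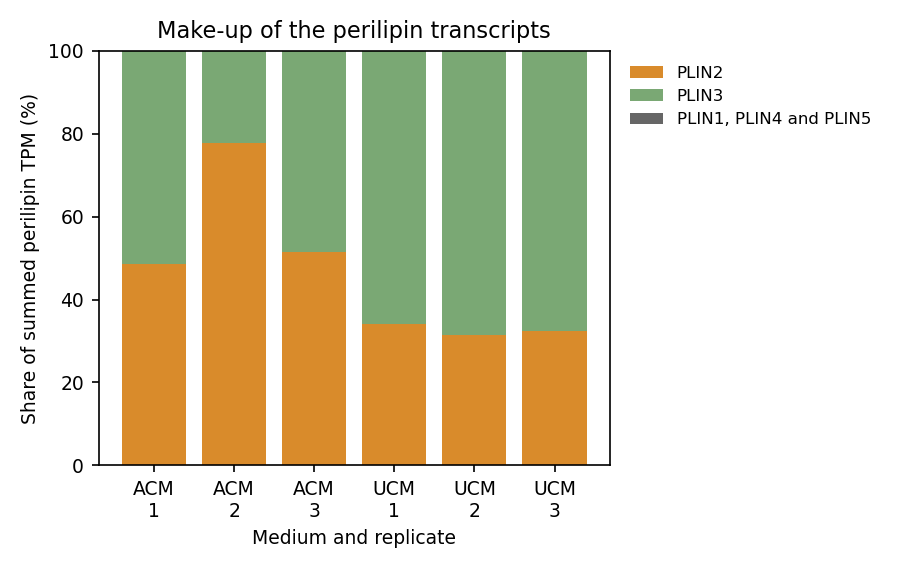
Share of the summed TPM of PLIN1 to PLIN5 taken by PLIN2 (orange), PLIN3 (green) and the other 3 (grey, too small to see), in percent, for each library. PLIN2 takes 48.5% to 77.8% in the ACM libraries and 31.5% to 34.1% in the UCM libraries.

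PLIN4 (ENSG00000167676, chr19:4502192-4518486, minus strand), a perilipin of adipocytes and muscle, was present at a few counts only. Counts of 21, 26 and 11 under ACM overlapped those of 14, 12 and 12 under UCM. In edgeR its log2 fold change was 0.60 with a standard error of 0.43, a 95% confidence interval from -0.34 to 1.54 and an adjusted p of 0.44. PLIN4 lies opposite HDGFL2, which had 1657 to 2136 counts per library, and the exons of the 2 genes share 17 bases, 0.261% of the PLIN4 exon bases. Strandedness of the libraries is not given in the sources used here, so reads of the shared bases cannot be told apart.

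PLIN5 (ENSG00000214456, chr19:4522531-4535224, minus strand), the perilipin of heart and other oxidative tissue, had 1 count in ACM replicate 1, UCM replicate 1 and UCM replicate 3 and 0 in the other libraries. Its 2 counts in UCM correspond to 0.0353 CPM, with an exact 95% Poisson interval from 0.00427 to 0.127 CPM that covers counting error only, and a difference between the media was not detectable at this depth.

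The lipase of the first step, PNPLA2 (ENSG00000177666, chr11:818914-825573, plus strand), was at nearly the same level in the 2 media. It was at 50.6, 51.1 and 49 CPM in ACM and at 47.9, 53 and 57.7 CPM in UCM, and the ACM values lay within the UCM range. The log2 fold change was -0.07 with a standard error of 0.08 and an adjusted p of 0.664 in edgeR, and turned to 0.01 without UCM replicate 3. Its 95% confidence interval, from -0.26 to 0.11, corresponds to between 0.835 and 1.08 times the UCM level.

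LIPE (ENSG00000079435, chr19:42401514-42427388, minus strand), the diacylglycerol lipase, was the 1 gene of the 8 whose ACM libraries were all below the UCM libraries. It was at 3.04, 3.43 and 3.15 CPM in ACM and at 4.12, 6.45 and 3.79 CPM in UCM, with 58 to 64 counts in ACM and 65 to 120 in UCM. The highest ACM and the lowest UCM library were 0.35 CPM apart, and UCM replicate 2 was well above the other UCM libraries. Its log2 fold change was -0.58 with a standard error of 0.24, a 95% confidence interval from -1.12 to -0.04 and an adjusted p of 0.186 in edgeR. Without UCM replicate 2 the log2 fold change was -0.30 with an adjusted p of 0.61. LIPE-AS1 on the opposite strand overlaps 9.69% of the LIPE exon bases and had at most 10 counts in a library.

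MGLL (ENSG00000074416, chr3:127689062-128052190, minus strand), the monoacylglycerol lipase, was slightly higher in ACM. It was at 24.4, 31 and 27.1 CPM in ACM and at 22.5, 24.4 and 18.9 CPM in UCM. ACM replicate 1 was above UCM replicate 2 by 0.01 CPM, and in TPM the groups overlapped, at 8.75 to 10.85 in ACM and 7.6 to 8.85 in UCM. For MGLL the log2 fold change was 0.32 with a standard error of 0.12, a 95% confidence interval from 0.05 to 0.60 and an adjusted p of 0.149 in edgeR. MGLL spans SEC61A1 on the opposite strand, with 10653.24 to 13921.18 counts, but the exons of the 2 genes share 0 bases.

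Of the regulators, the PNPLA2 inhibitor HILPDA (ENSG00000135245, chr7:128455849-128458418, plus strand) was higher in ACM in every library. It was at 22.7, 19 and 17.2 CPM in ACM and at 14.1, 15.9 and 16.3 CPM in UCM. ACM replicate 1 was the highest, and ACM replicate 3 was 0.91 CPM above the highest UCM library. The log2 fold change was 0.35 with a standard error of 0.13, a 95% confidence interval from 0.07 to 0.64 and an adjusted p of 0.134 in edgeR. The effective length of HILPDA is the abundance-weighted mean of its transcript lengths, each reduced for the length of the sequenced fragments. It was 970, 930 and 948 bases in ACM and 853, 881 and 936 in UCM. With effective lengths as offsets the log2 fold change of HILPDA was 0.26. HILPDA-AS1, which is annotated on the same strand and overlaps 8.99% of the HILPDA exon bases, had 0 to 15.24 counts. Another gene on that strand, ENSG00000273184, overlaps 8.45% of these bases. It had 9.16, 0 and 8.98 counts in UCM replicates 1 to 3 and 0 in each ACM library.

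The other PNPLA2 inhibitor, G0S2 (ENSG00000123689, chr1:209675412-209676390, plus strand), had 1 count in ACM replicate 1 and 0 in the other 5 libraries. A count of 0 over the 3 UCM libraries allows up to 0.0529 CPM (3 counts) and has an exact 95% Poisson upper limit of 0.0651 CPM, so no difference was detectable at this depth. Of the 2 inhibitors, HILPDA was thus the one with transcripts at a level that could be measured.

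The PNPLA2 activator ABHD5 (ENSG00000011198, chr3:43690108-43734371, plus strand) did not separate the media. It was at 18.2, 20.1 and 18.8 CPM in ACM and at 20.7, 22.6 and 19.4 CPM in UCM, and ACM replicate 2 overlapped UCM replicate 3. ABHD5 had a log2 fold change of -0.13 with a standard error of 0.10, a 95% confidence interval from -0.36 to 0.09 and an adjusted p of 0.481 in edgeR. ANO10 on the opposite strand, with 679 to 795 counts, shares 2.25% of the ABHD5 exon bases.

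The inhibitor and the activator were also set against their lipase. The ratio of HILPDA to PNPLA2 in CPM was 0.449, 0.372 and 0.35 in ACM and 0.294, 0.3 and 0.282 in UCM, without overlap, a difference in the mean log2 ratio of 0.41. In TPM this ratio was 0.762 to 0.928 in ACM and 0.591 to 0.726 in UCM, a smaller difference of 0.34. The ratio of ABHD5 to PNPLA2 in CPM was 0.359, 0.394 and 0.383 in ACM and 0.431, 0.426 and 0.336 in UCM, with overlap and a difference of -0.06. These ratios are values without a test, and a ratio of 3 against 3 libraries cannot reach a p below 0.1 in an exact permutation test.

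Genes with a profile like that of PLIN2, including the high value of ACM replicate 2, were looked for. Among 9670 tested genes that average at least 10 CPM, the nearest to PLIN2 in log2 CPM centred on the gene's own mean were STC1, CD68, LAMA4, CXCL2 and NDRG1, at root mean square distances of 0.22, 0.33, 0.35, 0.35 and 0.36 over the 6 libraries. STC1, which encodes the secreted glycoprotein stanniocalcin, was at 155, 448 and 140 CPM in ACM and at 82.1, 80.8 and 84.5 CPM in UCM. The neutrophil chemokine CXCL2 was at 43.5, 92.6 and 50.8 CPM in ACM and at 15.2, 13 and 14.7 CPM in UCM, and the endolysosomal glycoprotein CD68 was at 12.1, 29 and 16 CPM in ACM and at 6.58, 4.78 and 5.36 CPM in UCM. All 5 genes were highest in ACM replicate 2 and higher in each ACM library than in any UCM library. They were chosen for their likeness to PLIN2, so neither this pattern nor their calls are independent evidence for it. Of the 5, CXCL2 (log2 fold change 2.12, standard error 0.31, adjusted p = 0.0192) and CD68 (1.76, standard error 0.34, adjusted p = 0.0335) passed the threshold in edgeR, and the likeness is a description over 6 libraries that share the same ACM replicate 2.

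**Figure D4:**
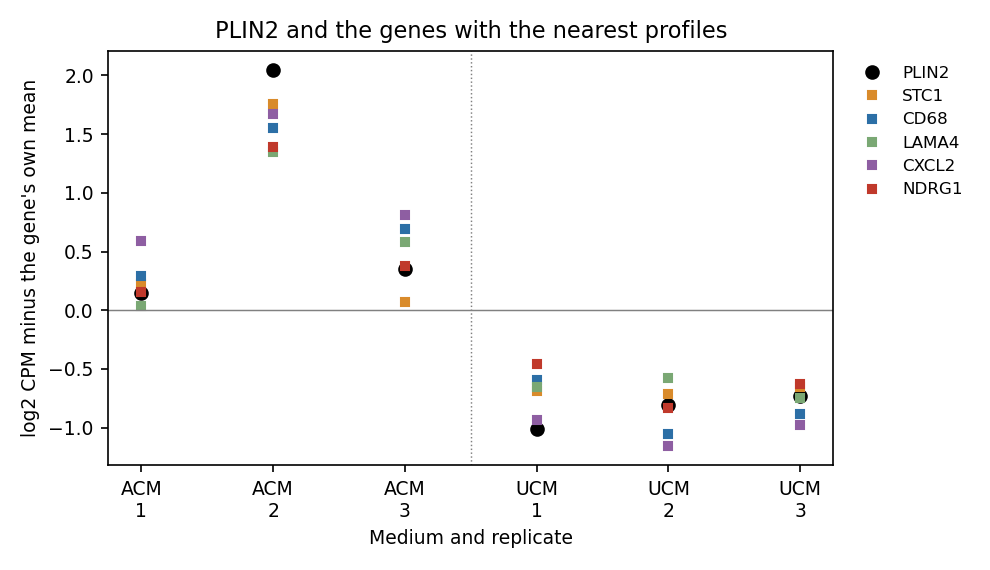
Log2 CPM minus the gene's own mean over the 6 libraries for PLIN2 (black circles) and the 5 genes nearest to it (squares), by medium and replicate. All 6 genes are highest in ACM replicate 2 and below their own mean in the 3 UCM libraries.

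Among the other listed genes of droplet assembly and coat, no tested gene passed the threshold. Of 20 other droplet assembly and coat genes, 11 were tested, 0 were called in either direction by edgeR and 0 by DESeq2, and their median log2 fold change was 0.03. At an unadjusted p at or below 0.05, 1 was higher and 1 lower in edgeR, beside 11.9% and 11.5% of all genes tested. The nearest to a difference were ACSL3, which activates fatty acids at nascent droplets, at 0.24 (adjusted p = 0.159 in edgeR), and FITM2, which partitions triacylglycerol into droplets, at -0.25 (adjusted p = 0.143 in edgeR). The adipocyte coat and fusion proteins CIDEA and CIDEC were at 0 in every library, and LDAH was listed at 0.

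Of 13 genes of neutral lipid esterification, 8 were tested, 0 rose (0 at the unadjusted p and 0 in DESeq2) and 1 fell in edgeR, beside 2.21% of all genes tested that fell. LPIN1, a phosphatidate phosphatase that makes diacylglycerol for triacylglycerol synthesis, fell from 26.7 ± 2.59 CPM in UCM to 16.4 ± 1.65 CPM in ACM (SD, n = 3 each), a log2 fold change of -0.70 with a standard error of 0.12 and an adjusted p of 0.00893 in edgeR. LPIN1 passed the threshold in each of 14 alternatives. The final acyltransferases DGAT1 and DGAT2 were at 0.13 (adjusted p = 0.428) and -0.07 (adjusted p = 0.737) on the log2 scale in edgeR.

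Of 11 other neutral lipid hydrolases, 7 were tested, 0 rose (1 at the unadjusted p and 0 in DESeq2) and 1 fell (2 at the unadjusted p and 2 in DESeq2) in edgeR, with a median log2 fold change of -0.14. Of all genes tested, 2.21% fell in edgeR, 11.5% were lower at the unadjusted p and 3.07% fell in DESeq2. PNPLA3, a lipase and transacylase related to PNPLA2, fell by 0.82 on the log2 scale, with a standard error of 0.15 and an adjusted p of 0.014 in edgeR. The PNPLA3 call was lost without ACM replicate 2, UCM replicate 2 or UCM replicate 3, where the log2 fold change was -0.73, -0.83 and -0.77. It was also lost with effective lengths as offsets, at -0.38 (adjusted p = 0.394 in edgeR), and on TPM with 1 or 0.1 added, at -0.37 and -0.42. With the replicate block 2 genes fell, the second being the lysosomal lipase LIPA at -0.40 (adjusted p = 0.00642 in edgeR).

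Targets of the PPAR receptors and of hypoxia, 2 classes to which PLIN2 and HILPDA are known to belong, were counted beside them, without either gene. Of 13 PPAR target genes, 9 were tested, 6 rose and 0 fell in edgeR (0 also at the unadjusted p and in DESeq2), beside 3.35% of all genes tested that rose, with a median log2 fold change of 0.48. ANGPTL4, an inhibitor of lipoprotein lipase, rose from 27.6 ± 1.83 to 257 ± 83.1 CPM (SD, n = 3 each), a log2 fold change of 3.21 with an adjusted p of 0.00294 in edgeR. PDK4, a kinase that turns off pyruvate dehydrogenase, rose from 0.35 ± 0.216 to 26.7 ± 22.5 CPM (SD, n = 3 each), a log2 fold change of 6.22 with a standard error of 1.00 and an adjusted p of 0.0335 in edgeR. PDK4 was at 10.1, 52.3 and 17.8 CPM and ANGPTL4 at 222, 351 and 196 CPM in ACM replicates 1 to 3. Both were highest in ACM replicate 2, and without it the log2 fold changes were 5.28 for PDK4 and 2.92 for ANGPTL4. The PDK4 call was lost with the filter of 1 count in total (adjusted p = 0.0753 in edgeR) and without UCM replicate 1, 2 or 3. Without these UCM libraries its log2 fold change was 6.07, 6.79 and 5.94, with an adjusted p of 0.129, 0.181 and 0.195 in edgeR. With the replicate block it was 6.16 with a standard error of 0.22 and an adjusted p of 4.4e-08 in edgeR. CPT1A, which passes fatty acids into mitochondria, rose by 0.75 and ACAA2, the last enzyme of mitochondrial β-oxidation, by 0.68 on the log2 scale (adjusted p = 0.001 and 0.00477 in edgeR). Without UCM replicate 2 or without UCM replicate 3 the number of PPAR target genes that rose was 3. The list overlaps with genes that earlier results of these libraries had shown, so the count is not independent evidence of its direction.

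Of 14 hypoxia target genes, 13 were tested, 3 rose and 0 fell in edgeR (9 and 0 at the unadjusted p, 8 and 0 in DESeq2), with a median log2 fold change of 0.59. Of all genes tested, 3.35% rose in edgeR, 11.9% were higher at the unadjusted p and 5.27% rose in DESeq2. The 3 were AK4, a mitochondrial adenylate kinase, at 0.81 (adjusted p = 0.0153), PDK1, a pyruvate dehydrogenase kinase, at 0.71 (adjusted p = 0.0186) and BNIP3, a mitophagy receptor, at 0.70 (adjusted p = 0.0424 in edgeR). NDRG1, one of the genes nearest to PLIN2, was at 1.37 with an adjusted p of 0.0689 in edgeR. The count was 7 with the replicate block and 8 without ACM replicate 3, and 0 without UCM replicate 2 or without UCM replicate 3. The groups did not overlap for 8 of the 13, all higher in ACM, beside 13.9% of all genes tested. This list too was typed with earlier results of these data known, so its counts are not independent evidence of its direction.

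**Figure D5:**
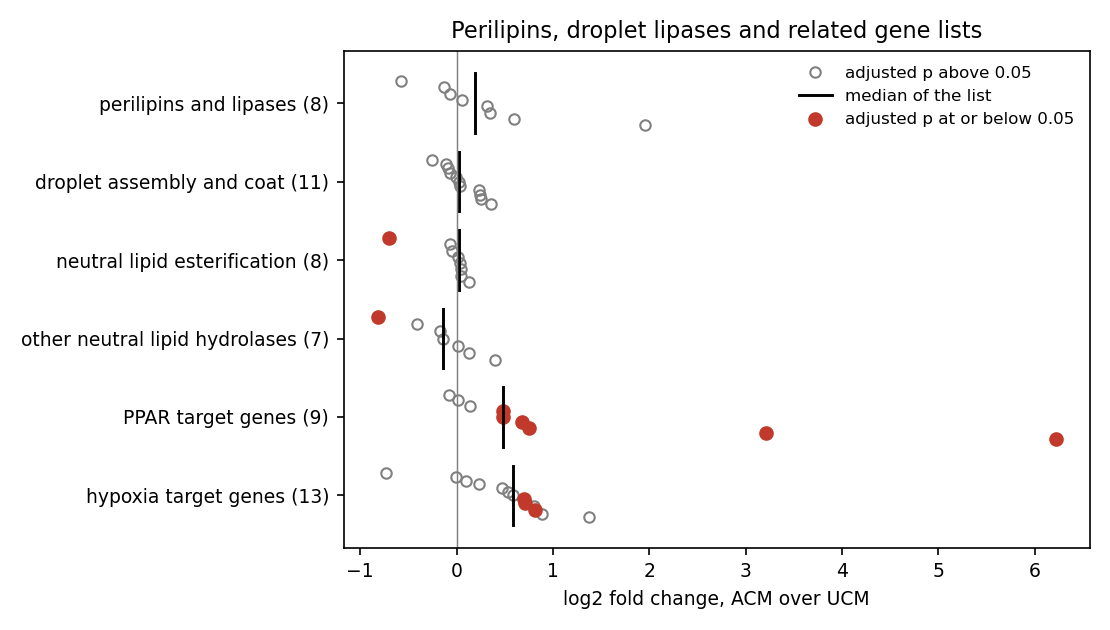
Log2 fold change of ACM over UCM for each tested gene of the perilipins and droplet lipases and of 5 related lists (number tested in brackets), with red points at an adjusted p at or below 0.05 in edgeR and a black bar at the list's median. The medians run from -0.14 for the other hydrolases to 0.59 for the hypoxia targets, and PLIN2, at 1.96, is the open point farthest to the right in the top row.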

How the data were processed

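PolyA RNA of 6 BT-549 cultures (3 ACM, 3 UCM) was sequenced in pairs. Per the submitters' notes, Trim Galore, STAR and RSEM were run on build GRCh38, and the authors deposited one RSEM table for each library. Tool versions and annotation are not given in the sources used here. The expected counts deposited for each gene are estimates not scaled for depth, and the TPM values the authors deposited are scaled by the effective length and the library's sum. A further deposited table holds the authors' own DESeq2 comparison and was not used. Symbols and positions came from GENCODE 44, which 61547 of 63140 identifiers matched, and promoters from RefSeq.

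Expected counts, 17135288 to 21053257 per library, were rounded to whole numbers. The test was edgeR 4.0.16 under R 4.3.3 (filterByExpr, TMM, robust quasi-likelihood fit, condition only, Benjamini-Hochberg over 14451 genes, threshold 0.05). The biological coefficient of variation was 0.115. CPM values are counts scaled to a common TMM-adjusted library total, and groups were called apart when the ranges of their CPM did not overlap. The edgeR and DESeq2 fits were tested on simulated data. Alternatives were DESeq2 1.42.0, RLE size factors, effective-length offsets, filters of 1 count in total and of 10 counts in every library, limma 3.58.1 on log2 TPM (pseudocounts 1 and 0.1), the replicate block and each library left out.

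Same-numbered libraries had positive correlations of their deviations (r = 0.46, 0.18 and 0.27 over genes averaging at least 10 CPM). ACM replicate 3 was nearer to UCM replicate 2 (r = 0.45) than to UCM replicate 3. The labels give no pairing, and this check does not settle whether the numbers pair the libraries. The main comparison has no block, and the blocked fit is given as an alternative.

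The 10 genes and the lists, typed by hand, were chosen with earlier results of these data known. The text names the 10 genes, up to 5 called genes of each list by size of change, the 5 genes nearest to PLIN2, overlapping genes and markers. ACSL3, FITM2, DGAT1, DGAT2, LIPA and LDAH were added after their values were seen.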

Additional observations from a re-analysis of the deposited data

How the results depend on the processing

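Of 112 fold changes of the 8 tested genes under 14 alternatives, 108 kept their direction and their side of the threshold. PLIN2 passed it with DESeq2 (log2 fold change 1.97) and without ACM replicate 2, and its log2 fold change ran from 1.10 to 2.29 with libraries left out. PLIN3 turned to -0.04 without UCM replicate 1 and PNPLA2 to 0.01 without UCM replicate 3, over ranges of -0.04 to 0.14 and -0.13 to 0.01. The number of the 8 called higher was 1 with DESeq2 and 0 to 1 with libraries left out. The median log2 fold change of the 8 was 0.19, 0.08 on log2 TPM with 1 added, and 0.13 to 0.25 with libraries left out. Over the 5 related lists, 9 genes rose, 14 with DESeq2, 15 with the filter of 1 count and 3 to 13 with libraries left out, and 2 fell, 1 with effective-length offsets, 1 on log2 TPM with either pseudocount and 1 to 3 with libraries left out. The difference in the log2 ratio of ABHD5 to PNPLA2 was -0.18 to 0 with libraries left out and 0 without UCM replicate 1. The cause of these shifts was not tested, apart from fewer libraries or genes by construction.

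Over all genes, the 484 higher and 320 lower became 762 and 444 with DESeq2, 272 and 134 with effective-length offsets, 1045 and 679 with the filter of 1 count, 230 and 132 on log2 TPM with 1 added, 234 and 138 with 0.1 added, 909 and 703 with the replicate block, and 125 to 738 higher and 62 to 572 lower with libraries left out. The replicate block changed no call among the 8 genes, where PLIN2 was at 1.69 (adjusted p = 0.245 in edgeR). The counts of PLIN4, PLIN5 and G0S2 are too low to show any but large differences.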
